A study of Mus musculus with 12 samples.

Results

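Endothelial genes were followed across primary mouse embryonic fibroblasts of 4 genotypes. The group holds 10 genes chosen by name as markers of blood vessel lining cells, out of 24054 genes in the deposited table of expected counts. They are Erg, a transcription factor gene, Flt1, Kdr, Tek and Tie1, which encode receptor tyrosine kinases, Eng, a co-receptor gene, and Emcn, Pecam1, Cdh5 and Vwf, which encode surface, junction or secreted proteins. These members, and the gene lists used below, were chosen with earlier results of these data known. Shares and medians of the set given beside those of all genes are thus descriptions and not tests. The libraries came from Blm KO (Blm -/-), Recql KO (Recql -/-), double KO (Blm -/- Recql -/-) and wild-type (WT) cells, with 3 libraries per genotype and 12 in all. Blm and Recql encode DNA helicases of the RecQ family. All cells were primary fibroblasts grown in low oxygen (3% O2), with polyadenylated RNA sequenced, and the labels name no sort, no treatment and no tissue part of the embryo. Separate embryos or cultures are not named for the libraries, so the p-values speak for the spread among these 12 libraries, which in WT may be technical. The libraries of each KO genotype differ in Y-linked and Xist transcripts.

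Blood vessels grow when VEGF binds the receptor encoded by Kdr on endothelial cells, while the receptor encoded by Flt1 binds the same ligand tightly and signals weakly. Angiopoietins act through the receptor of Tek, to which the receptor of Tie1 is a partner. ERG is an ETS-family transcription factor that keeps endothelial genes active in vessels and is also made in embryonic cartilage, and endoglin is carried by endothelial cells and by many mesenchymal cells and fibroblasts.

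Library totals ranged from 47758552 to 59296354 expected counts, at which 3 counts correspond to 0.0508 to 0.0614 CPM, the count scaled to library size by the trimmed mean of M values (TMM). Blm was lower in the Blm KO libraries (4.13 ± 1.32 CPM) and in the double KO libraries (5.5 ± 1.57 CPM) than in WT (20.7 ± 1.85 CPM; SD, n = 3 each). Recql was not called lower in the libraries labelled Recql KO (25.2 ± 4.16 CPM) or double KO (26.3 ± 8.56 CPM) than in WT (27.7 ± 1.86 CPM; SD, n = 3 each; edgeR adjusted p = 0.642 and 0.928). The 95% intervals of the log2 fold change were -0.57 to 0.30 and -0.51 to 0.36. Its lowest mean was in Blm KO (22.4 ± 1.49 CPM, edgeR adjusted p = 0.421 against WT). Directions drawn from the labels Recql KO and double KO thus rest on the labels alone. On the first principal component, which held 44.9% of the variance, the 3 libraries labelled Recql KO lay at 80.2 to 86.5 and the other 9 at -59.4 to -7.29. All 3 WT libraries and 1 library of each other genotype were high in Y-linked transcripts (229 to 283 CPM summed over 4 genes), and are called Y-high here. Of these, Blm KO replicate 1 and double KO replicate 2 also held 11.7 and 10.3 CPM of Xist, against 0.111 to 3.08 CPM in the other Y-high libraries. The library labelled Recql KO replicate 2 held 28.7 CPM of Y-linked transcripts together with 310 CPM of Xist, and the remaining 5 libraries, called Y-low, held 0.676 to 6.25 CPM. No WT library was Y-low, so no comparison with WT could be made within that class.

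The levels of the members spread over a wide range, down to nearly silent genes. Per kilobase of annotated exon, Eng was the highest in WT at 10.1 ± 2.1 CPM per kb (SD, n = 3), followed by Erg at 3.01 ± 0.711 and Flt1 at 2.1 ± 1.07. Tek was at 0.982 ± 0.362, Kdr at 0.884 ± 0.554, Emcn at 0.256 ± 0.0502 and Cdh5 at 0.203 ± 0.121 CPM per kb, and the lowest were Pecam1 at 0.0644 ± 0.0354, Vwf at 0.0159 ± 0.00155 and Tie1 at 0.00125 ± 0.00217. Erg and Flt1, Tek and Kdr, and Emcn and Cdh5 were neighbours whose means differed by less than the larger SD of the pair. The junction and adhesion genes that define endothelial cells were low in every genotype. Pecam1, an adhesion molecule of endothelial junctions and platelets, had 8 to 33 counts in a library, and Vwf, the clotting glycoprotein of vessel walls and platelets, had 7 to 23. Cdh5, which encodes VE-cadherin, had 2 to 72 counts. For Tie1 the sums over 3 libraries were 0 counts in Blm KO, 2 in Recql KO, 1 in double KO and 1 in WT, all at or under a floor of 3 counts over a group, so that no fold is given. The same libraries held 10 fibroblast genes (among them Col1a1 and Col3a1) at a sum of 12791 to 37495 CPM per library.

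**Figure D1:**
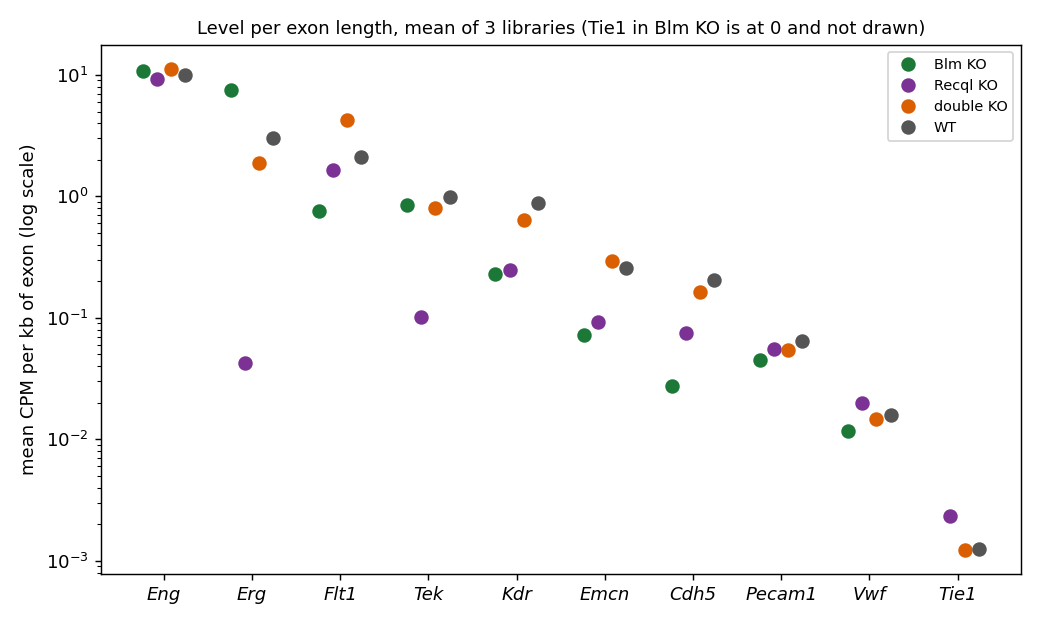
Mean level of each member per kilobase of annotated exon (CPM per kb, log scale) in Blm KO, Recql KO, double KO and WT libraries (points, means of 3 libraries). Eng stayed between 9.19 and 11.3 CPM per kb in the 4 genotypes, whereas Erg spanned 0.0428 to 7.54 CPM per kb, and Pecam1, Vwf and Tie1 were at most 0.0644 CPM per kb.

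Of the 10 genes, 9 passed the filter on low counts and were tested, and Tie1 did not. In the libraries labelled Recql KO, 4 of the 9 fell against WT and none rose, where 29.9% of all 14876 tested genes were called and 15.6% were called lower. The 4 genes were Erg, Tek, Kdr and Emcn, and they were also the 4 whose Recql KO libraries all lay below all WT libraries, which held for 25.4% of all genes. The median log2 fold change of the 9 genes was -1.42, beside -0.01 over all genes tested. A smaller number of cells that make a transcript and less transcript per cell cannot be told apart in these bulk libraries.

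Erg (mm10 chromosome 16, 95359169 to 95586593, minus strand) was close to absent with the Recql KO label. Its level was 0.0556, 0.103 and 0.287 CPM in the 3 Recql KO libraries, against 12.9, 7.95 and 10.5 CPM in WT, or 3, 6 and 14.31 expected counts against 697, 460 and 554. Each Recql KO library thus lay far below each WT library. The log2 fold change was -6.15 ± 0.60 (SE, edgeR adjusted p = 0.000219). Among the other libraries, Erg had 38, 11.9 and 28.4 CPM in Blm KO and 5.64, 5.02 and 9.08 CPM in double KO. Leaving out any 1 of the 12 libraries kept the call, with log2 fold changes of -6.98 to -5.76, although the value without Recql KO replicate 3 was more than 1.5 times as large a fold (-6.98). Among Y-high libraries, where Recql KO replicate 1 is alone in its group, it was -7.50.

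Tek (chromosome 4, 94739289 to 94874976, plus strand), the angiopoietin receptor gene, had 0.259, 0.189 and 0.983 CPM in the Recql KO libraries, against 6.6, 3.68 and 3.6 CPM in WT. The groups did not overlap, and the third Recql KO library held several times the level of the other two. The log2 fold change was -3.29 ± 0.91 (SE, edgeR adjusted p = 0.0213). It did not pass without Recql KO replicate 1 (-2.99, edgeR adjusted p = 0.0785), without Recql KO replicate 2 (-2.89, 0.0807) or without WT replicate 1 (-2.94, 0.0575), and it was -4.35 without Recql KO replicate 3. With the covariate for Y-linked expression it was -4.63 (edgeR adjusted p = 0.00354). Among Y-high libraries, with Recql KO replicate 1 alone in its group, it was -4.15.

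Kdr (chromosome 5, 75932827 to 75978458, minus strand) had 1.91, 2.34 and 2.5 CPM in the Recql KO libraries, against 3.66, 6.83 and 13.5 CPM in WT. The Recql KO libraries were close together and the WT libraries spread 3.68-fold, with no overlap. The log2 fold change was -1.83 ± 0.56 (SE, edgeR adjusted p = 0.0321). The call was lost without any 1 of the 3 Recql KO libraries (edgeR adjusted p = 0.101, 0.0896 and 0.0701 without replicates 1, 2 and 3), without WT replicate 2 (0.0505) and without WT replicate 3 (-1.22, 0.133). With a covariate for Y-linked expression Kdr was at -1.75 and not called (edgeR adjusted p = 0.0851). Among Y-high libraries, with Recql KO replicate 1 alone in its group, Kdr was at -2.06.

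Emcn (chromosome 3, 137341067 to 137432185, plus strand), which encodes endomucin, a mucin-like surface protein of capillaries and veins, had 0.371, 0.74 and 0.389 CPM in the Recql KO libraries and 1.07, 1.5 and 1.57 CPM in WT. Every Recql KO library was below every WT library, at 19 to 43 counts against 58 to 87. The log2 fold change was -1.46 ± 0.36 (SE, edgeR adjusted p = 0.0133), and the call was lost without Recql KO replicate 1 (-1.28, edgeR adjusted p = 0.0537). Among Y-high libraries, with Recql KO replicate 1 alone in its group, it was -1.89.

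The other 5 tested members did not pass in that comparison. Flt1 was at 21.2, 24 and 21.3 CPM in the Recql KO libraries and 41.4, 30.8 and 12.8 CPM in WT, so the third WT library lay below all 3 Recql KO libraries (log2 fold change -0.36, 95% interval -1.41 to 0.70, edgeR adjusted p = 0.606). Eng (chromosome 2, 32646595 to 32682669) stood at 34.5, 35.5 and 41.6 CPM in Recql KO and 31.3, 43.5 and 47.7 CPM in WT, with an interval of the log2 fold change of -0.81 to 0.55 (edgeR adjusted p = 0.772). Eng lies opposite Fpgs on the other strand, and the strand setting of the counting is not given in the sources used here. Cdh5 was 0.185, 0.516 and 0.246 CPM in Recql KO and 0.351, 0.847 and 1.36 CPM in WT (log2 fold change -1.42, edgeR adjusted p = 0.145). Pecam1 and Vwf had log2 fold changes of -0.23 and 0.31 (edgeR adjusted p = 0.754 and 0.594), at levels where 8 to 33 counts limit what can be seen.

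**Figure D2:**
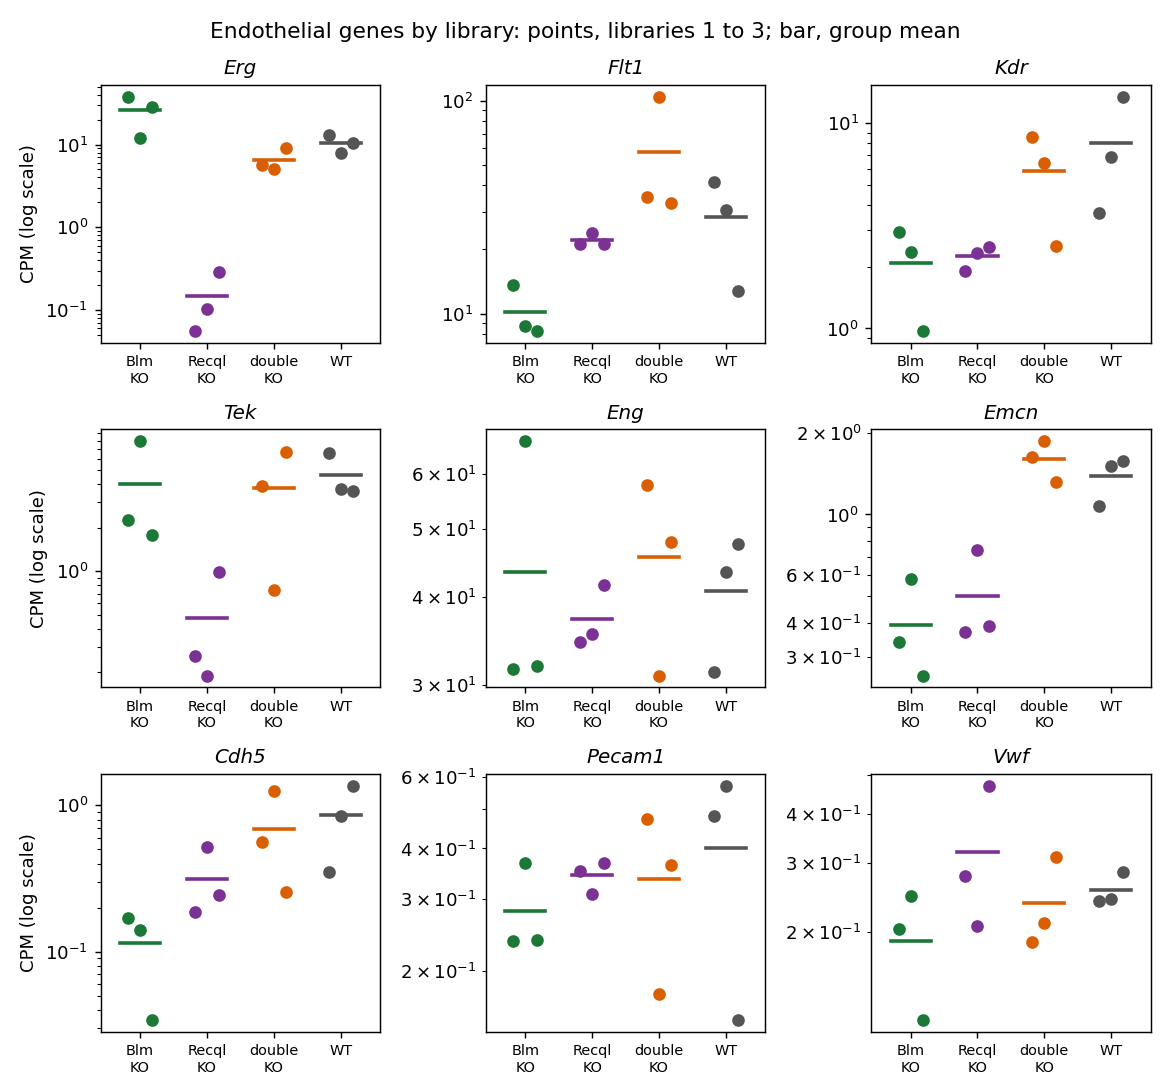
Level of the 9 tested members (CPM, log scale) in each library of Blm KO, Recql KO, double KO and WT (points, libraries 1 to 3 from left to right in each group; bars, group means). The 3 Recql KO libraries lie at 0.0556 to 0.287 CPM for Erg, below every other library, and Flt1 in double KO replicate 2 stands at 104 CPM.

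The promoters of the 4 genes that fell together with the Recql KO label are shown because ERG and other ETS factors bind around a GGAA core, and endothelial promoters are known for such sites. The 250 bases before the annotated start are given from RefSeq (GRCm38.p6, the same assembly as mm10), 5′ to 3′ on the strand of the gene. Capitals mark AGGAAG, its variant CGGAAG or the longer motif AACAGGAA on either strand, where AGGAAG and AACAGGAA can overlap. For Erg, which has 3 annotated starts in that table, the farthest upstream is shown (chr16:95586594-95586843, minus strand), with Tek (chr4:94739039-94739288, plus strand), Kdr (chr5:75978456-75978705, minus strand) and Emcn (chr3:137340828-137341077, plus strand).
Erg: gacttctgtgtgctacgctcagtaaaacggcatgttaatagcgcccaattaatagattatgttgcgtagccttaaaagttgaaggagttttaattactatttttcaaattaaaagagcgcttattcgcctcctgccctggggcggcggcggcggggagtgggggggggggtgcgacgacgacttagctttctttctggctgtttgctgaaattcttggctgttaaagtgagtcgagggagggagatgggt
Tek: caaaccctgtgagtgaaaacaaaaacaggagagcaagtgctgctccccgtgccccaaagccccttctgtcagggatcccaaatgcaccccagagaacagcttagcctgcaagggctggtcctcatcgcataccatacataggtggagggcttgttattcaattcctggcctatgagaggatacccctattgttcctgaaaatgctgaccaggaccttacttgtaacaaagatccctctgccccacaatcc
Kdr: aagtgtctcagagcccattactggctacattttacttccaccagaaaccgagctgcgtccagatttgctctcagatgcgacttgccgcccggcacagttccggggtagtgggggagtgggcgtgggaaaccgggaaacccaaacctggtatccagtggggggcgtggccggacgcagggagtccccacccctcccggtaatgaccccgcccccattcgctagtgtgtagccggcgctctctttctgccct
Emcn: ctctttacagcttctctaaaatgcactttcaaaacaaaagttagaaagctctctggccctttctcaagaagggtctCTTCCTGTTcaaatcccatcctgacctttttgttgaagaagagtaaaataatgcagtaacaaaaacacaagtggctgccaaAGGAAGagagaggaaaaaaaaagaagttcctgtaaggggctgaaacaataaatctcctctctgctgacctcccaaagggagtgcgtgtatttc

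Of the 4 windows, the one of Emcn held matches: 2 of AGGAAG, 1 of them overlapping a match of AACAGGAA. The windows of Erg, Tek and Kdr shown here held none of the 3 motifs, while 1 of the 2 other Erg windows held 1 match of AGGAAG. Other sequences with a GGAA core on either strand, which the Tek and Kdr windows do hold, were not counted. Promoters were matched for 7 of the 10 members, with 9 windows in all, and 5 of the 9 held AGGAAG, which was found in 29.5% of 32851 promoter windows of the same length. CGGAAG was in 1 of 9 (Tie1), beside 13.6% of all windows, and AACAGGAA was in 1 of 9, beside 2.2%. Flt1 and Eng, which were not called with the Recql KO label, held 2 matches of AGGAAG each. Whether ETS factors act at any of these promoters was not tested. A match is a description of letters and not of a bound site.

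Blm KO against WT gave no called member. By edgeR 0 of 9 passed, with 5 at an unadjusted p under 0.05 and 5 called by DESeq2. Over all genes edgeR called 0.753%, 18.9% had an unadjusted p under 0.05, and DESeq2 called 6.65%. The 5 genes were the same by either count, namely Erg, Flt1, Kdr, Emcn and Cdh5, and Erg differed from the others in sign. Kdr, Emcn and Cdh5 had all Blm KO libraries below all WT libraries, which held for 12.1% of all genes. The median over the 9 was -0.51, beside 0.00497 over all genes.

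Erg had 38, 11.9 and 28.4 CPM in Blm KO, against 12.9, 7.95 and 10.5 CPM in WT, and the second Blm KO library lay within the WT range. Its log2 fold change was 1.32 ± 0.43 (SE, edgeR adjusted p = 0.146). Emcn had 0.339, 0.58 and 0.256 CPM in Blm KO, against 1.07, 1.5 and 1.57 CPM in WT, with a log2 fold change of -1.82 ± 0.37 (SE, edgeR adjusted p = 0.0536). Emcn passed without Blm KO replicate 2 (-2.21, edgeR adjusted p = 0.0422) and also when double KO replicate 2 or double KO replicate 3 was left out of the shared fit (0.0321 and 0.0486). Among Y-high libraries, with Blm KO replicate 1 alone in its group, Emcn was at -2.01 and Erg at 1.87.

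Cdh5 was at 0.169, 0.141 and 0.0341 CPM in Blm KO, against 0.351, 0.847 and 1.36 CPM in WT, which are 2 to 10 counts against 19 to 72. The log2 fold change was -2.87 ± 0.76 (SE, edgeR adjusted p = 0.111). Kdr had 2.95, 2.35 and 0.971 CPM in Blm KO, against 3.66, 6.83 and 13.5 CPM in WT (log2 change -1.93 ± 0.56 SE, edgeR adjusted p = 0.129). Flt1 was at 13.6, 8.73 and 8.28 CPM in Blm KO, against 41.4, 30.8 and 12.8 CPM in WT, where the first Blm KO library exceeded the third WT library (-1.48 ± 0.49 SE, edgeR adjusted p = 0.157). Tek had 2.27, 7.94 and 1.77 CPM in Blm KO and Eng 31.6, 66.7 and 31.9 CPM, so that the second Blm KO library was the highest of all 12 for both genes, while WT held 3.6 to 6.6 CPM of Tek and 31.3 to 47.7 CPM of Eng. The adjusted p for Tek and Eng was 0.91 and 0.901 by edgeR.

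**Figure D3:**
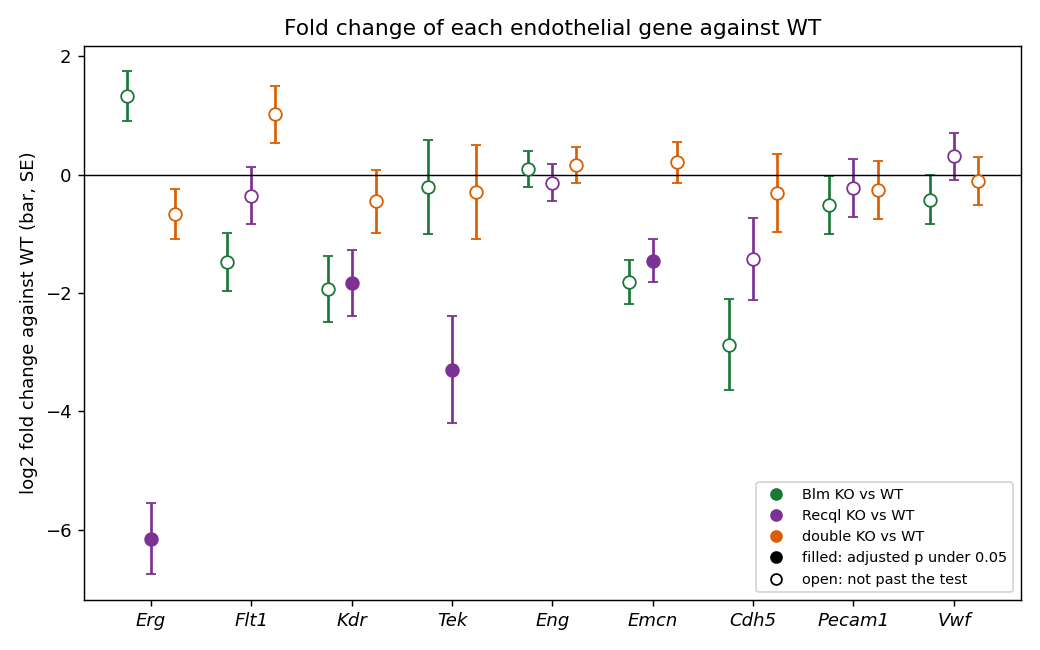
Log2 fold change of each tested member against WT (points; bars, SE of the edgeR model) for Blm KO, Recql KO and double KO. Filled points passed an adjusted p under 0.05, which was the case for Erg (-6.15), Tek (-3.29), Kdr (-1.83) and Emcn (-1.46) in Recql KO and for none in Blm KO or double KO.

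Double KO against WT gave no called member either. By edgeR 0 of 9 passed, with 0 at an unadjusted p under 0.05 and 0 called by DESeq2. Over all genes edgeR called 0.121%, 10.8% had an unadjusted p under 0.05, and DESeq2 called 2.28%. The libraries of every member overlapped, where those of 14.1% of all genes did not. The median over the 9 was -0.26, beside 0.00676 over all genes. Flt1 had 35.3, 104 and 33 CPM in double KO, against 41.4, 30.8 and 12.8 CPM in WT, with 1 double KO library far above the rest (log2 fold change 1.02, 95% interval -0.04 to 2.08, edgeR adjusted p = 0.477). Erg had 5.64, 5.02 and 9.08 CPM in double KO, against 7.95 to 12.9 CPM in WT (-0.67, interval -1.61 to 0.27, edgeR adjusted p = 0.624). Kdr was at 8.52, 6.43 and 2.52 CPM in double KO, within or near the WT range of 3.66 to 13.5 CPM. The intervals include a 2-fold lower level of Erg, Kdr, Pecam1, Cdh5, Tek and Vwf. They include a 2-fold higher level of Flt1, Cdh5 and Tek. Those of Emcn (-0.55 to 0.97) and Eng (-0.52 to 0.84) include neither.

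Double KO was next set against each single KO. Against Blm KO, Flt1 and Emcn were higher and Erg was lower, 3 of 9 called where edgeR called 1.96% of all genes. Flt1, Emcn and Cdh5 lay above Blm KO in all double KO libraries (12% of all genes) and Erg below (14.1%). Flt1 had 35.3, 104 and 33 CPM in double KO, against 13.6, 8.73 and 8.28 CPM in Blm KO, without overlap (log2 change 2.50 ± 0.51 SE, edgeR adjusted p = 0.0366). Emcn had 1.62, 1.86 and 1.32 CPM in double KO, against 0.339, 0.58 and 0.256 CPM in Blm KO (2.03 ± 0.37 SE, edgeR adjusted p = 0.0286). Erg had 5.02 to 9.08 CPM in double KO, against 11.9 to 38 CPM in Blm KO (-1.99 ± 0.44 SE, edgeR adjusted p = 0.0473). These calls were fragile: without Blm KO replicate 1, Blm KO replicate 3, double KO replicate 1 or double KO replicate 2 none of the 3 passed, and Flt1 was at 1.74 (edgeR adjusted p = 0.101) without double KO replicate 2. Without Recql KO replicate 1 or 2, which share only the estimate of the spread, 1 of the 3 passed (Emcn). Flt1 was also not called without Blm KO replicate 2 or Recql KO replicate 3 (edgeR adjusted p = 0.0624 and 0.0543), nor Erg without WT replicate 1, 2 or 3 (0.0638, 0.0552 and 0.0636). With the covariate for Y-linked expression Erg was not called (0.0603).

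Among Y-low libraries, a choice made after seeing the data, Flt1 was at 2.01 (edgeR adjusted p = 0.0417), Emcn at 1.82 (0.299) and Erg at -1.45 (0.395) for double KO against Blm KO. Among Y-high libraries, with 1 library per group, Flt1 was at 2.93, Emcn at 2.43 and Erg at -2.94.

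Against the libraries labelled Recql KO, double KO was higher in Erg, Emcn and Tek, 3 of 9 called where edgeR called 24.7% of all genes and 13.2% as higher. Erg, Flt1, Kdr and Emcn lay above Recql KO in all double KO libraries, as did 22.5% of all genes. Erg had 5.64, 5.02 and 9.08 CPM in double KO, against 0.0556, 0.103 and 0.287 CPM in Recql KO (log2 change 5.49 ± 0.60 SE, edgeR adjusted p = 0.000342), and was called whichever library was left out, with 6.32 without Recql KO replicate 3. Emcn had 1.32 to 1.86 CPM in double KO, against 0.371 to 0.74 CPM in Recql KO (1.67 ± 0.36 SE, edgeR adjusted p = 0.00854), also called in all 12 of those fits. Tek had 3.9, 0.737 and 6.72 CPM in double KO, against 0.259, 0.189 and 0.983 CPM in Recql KO, with the second double KO library inside the Recql KO range (3.01 ± 0.90 SE, edgeR adjusted p = 0.0345). Tek was not called without Recql KO replicate 1 (0.115), Recql KO replicate 2 (0.117), double KO replicate 1 (0.0598) or double KO replicate 3 (2.29 and 0.116, all edgeR adjusted p), and was at 4.06 without Recql KO replicate 3. Tek was also not called with no filter on low counts (0.0614) or in a fit on the compared groups (0.0677). Flt1 at 1.38 did not pass (edgeR adjusted p = 0.0607), although it did without double KO replicate 1, double KO replicate 3 or WT replicate 3 (0.0466, 0.0493 and 0.0388). Without double KO replicate 2, the library at 104 CPM, Flt1 was at 0.62 (edgeR adjusted p = 0.276). Among Y-high libraries, with 1 library in each of these groups, Erg was at 6.43, Emcn at 2.31 and Tek at 1.49. Among Y-low libraries, with Recql KO replicate 3 alone in its group, they were at 4.66, 1.90 and 2.42.

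Recql KO and Blm KO libraries were also compared directly. Erg and Tek were lower in Recql KO than in Blm KO, 2 of 9 where 40.2% of all genes were called and 20.9% as lower (log2 change -7.48 ± 0.62 SE, edgeR adjusted p = 4.9e-05 for Erg, and -3.08 ± 0.90 SE, 0.0206 for Tek). Their libraries did not overlap, as for 29.9% of all genes on the lower side, and neither did those of Flt1 and Cdh5 on the higher side (27.3%). For Erg the order of mean levels was thus Blm KO (26.1 CPM), WT (10.4 CPM), double KO (6.58 CPM) and Recql KO (0.149 CPM), in which Blm KO and WT, and WT and double KO, did not differ past the test. For Emcn it was double KO (1.6 CPM), WT (1.38 CPM), Recql KO (0.5 CPM) and Blm KO (0.391 CPM), with a called step between WT and Recql KO and none between the other neighbours. For Tek, WT (4.63 CPM), Blm KO (4 CPM) and double KO (3.79 CPM) were neighbours without a called step, above Recql KO (0.477 CPM). The call for Tek between Recql KO and Blm KO was lost without Blm KO replicate 2 (-2.10, edgeR adjusted p = 0.0773), Recql KO replicate 1 (0.0758) or Recql KO replicate 2 (0.0751). Without Recql KO replicate 3 Erg was at -8.31 and Tek at -4.14, and Flt1 passed as higher without double KO replicate 2 (edgeR adjusted p = 0.0311) and in a fit on these 2 groups (0.00615). Among Y-high libraries, with 1 library in each of these groups, Erg was at -9.37 and Tek at -3.13. Erg had only 3 counts in that Recql KO library (replicate 1). Among Y-low libraries, with Recql KO replicate 3 alone in its group, Erg was at -6.12, Tek at -2.29 and Flt1 at 1.33.

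The change with the Recql KO label was then compared between Blm KO and WT cells, as the change from double KO over Blm KO minus the change from Recql KO over WT. This difference passed for 5 of 9 members, all positive, where 10.4% of all genes were called and 5.86% as positive. For Emcn it was 3.48 ± 0.52 (SE, log2, edgeR adjusted p = 0.00561), since Emcn was higher in double KO than in Blm KO and lower in Recql KO than in WT. For Erg it was 4.17 ± 0.73 (edgeR adjusted p = 0.0097), with a lower level on both sides that was much smaller in size in Blm KO cells (-1.99) than in WT cells (-6.15). Flt1 (2.85 ± 0.69 SE, edgeR adjusted p = 0.0291), Kdr (3.30 ± 0.79 SE, 0.0274) and Cdh5 (3.99 ± 1.03 SE, 0.0362) also passed. Tek was at 3.22 (edgeR adjusted p = 0.11), and Pecam1, Eng and Vwf at 0.48, 0.20 and 0.01 (0.682, 0.791 and 0.99).

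Erg and Emcn kept this call in each of the 12 fits that left out a library, at adjusted p of 0.00665 to 0.0365 and 0.00609 to 0.0174. Flt1, Kdr and Cdh5 lost it in 7, 7 and 8 of those fits, which include the fits without any 1 of the 3 Recql KO libraries and without Blm KO replicate 2 or 3. The other such fits were those without WT replicate 1 (Flt1, 0.0585), WT replicate 2 (Flt1 and Cdh5, 0.0606 and 0.0694), WT replicate 3 (Kdr and Cdh5, 0.0562 and 0.0722) and double KO replicate 2 (Kdr and Cdh5, 0.0505 and 0.0715). Erg was at 4.98 without Recql KO replicate 3, Kdr at 2.69 without WT replicate 3, and Flt1 and Cdh5 at 2.1 and 3.24 without double KO replicate 2. With a covariate for Y-linked expression, Erg, Emcn and Tek passed (0.0259, 0.0166 and 0.0278). Among Y-high libraries, where each KO genotype has a lone library, Erg was at 4.56 and Emcn at 4.33.

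**Figure D4:**
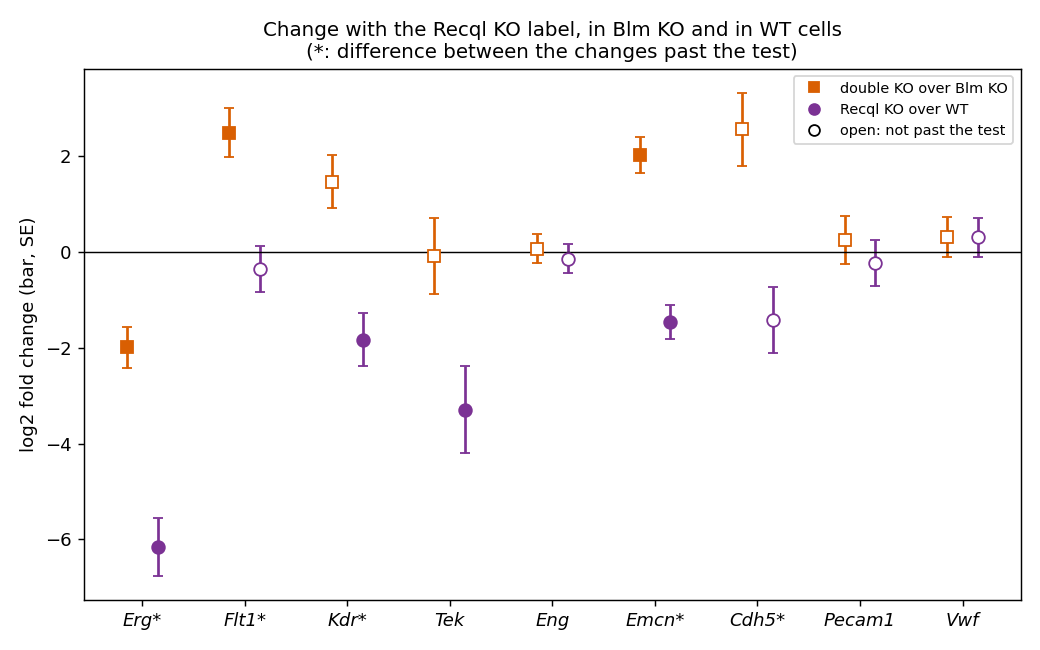
Log2 fold change (bars, SE) of double KO over Blm KO (squares) and of Recql KO over WT (circles) for each tested member. Emcn lies at 2.03 and -1.46 and Erg at -1.99 and -6.15, and an asterisk marks the 5 genes whose difference between the changes passed the test.

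The ligands of these receptors and other parts of their pathways were read from lists chosen by function. With the Recql KO label, 2 of 8 VEGF and angiopoietin ligands rose and 2 fell, where 14.2% of all genes were called higher and 15.6% lower. Vegfa, the main vessel growth factor, rose (257 ± 32.4 CPM in Recql KO, 127 ± 23.3 in WT, SD, n = 3; edgeR adjusted p = 0.00157), as did Vegfc, the lymphatic ligand (18.5 ± 3.29 in Recql KO, 11.5 ± 3.18 in WT; 0.0334). Angpt1 and Angpt2, which encode the ligands of the Tek receptor, fell to 13.3 ± 5.31 and 15.1 ± 3.03 CPM in Recql KO, against 34.5 ± 6.92 and 34.3 ± 6.12 CPM in WT (edgeR adjusted p = 0.0107 and 0.00482). Of the 3 other VEGF receptors and co-receptors, Flt4 rose (37.9 ± 8.92 in Recql KO, 17 ± 6.91 in WT; 0.0361), while Nrp2 (251 ± 43.3 in Recql KO, 439 ± 49.2 in WT; 0.0357) and Nrp1 (340 ± 11.6 in Recql KO, 420 ± 33.5 in WT; 0.0481) fell.

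Around endoglin, 3 of 13 tested pathway genes rose with the Recql KO label and 0 fell, where 14.2% of all genes were called higher and 15.6% lower. These were Acvrl1, the partner receptor of endoglin (39.5 ± 5.27 CPM in Recql KO, 21.6 ± 6.02 in WT, SD, n = 3; edgeR adjusted p = 0.013), Bmpr2, a type of BMP receptor (385 ± 43.7 in Recql KO, 286 ± 31 in WT; 0.0138), and Smad7, an inhibitor of the pathway (139 ± 15.1 in Recql KO, 85.2 ± 21.6 in WT; 0.0282). Other ETS factors moved by less than Erg: of 11 tested, 3 rose (Elk3, Elf1 and Ets1, by 1.35-, 1.43- and 1.38-fold) and 1 fell (Elf2, 1.15-fold), near the 29.9% of all genes called in either direction.

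A wider list of 23 endothelial genes did not follow Erg as a group. In Recql KO libraries, 1 of 15 tested rose and 2 fell, where 14.2% of all genes were called higher and 15.6% lower. The median of the 15 was 0.04, beside -0.01 over all genes. Clec14a, a surface lectin of vessel cells, fell to 3.77 ± 1.36 CPM in Recql KO, against 32.1 ± 14 in WT (SD, n = 3, edgeR adjusted p = 0.00325), and Egfl7, a secreted vessel factor, fell to 2.01 ± 0.257 CPM, against 3.37 ± 0.0532 in WT (0.0271). Ptprb, the phosphatase that acts on the Tek receptor, rose to 40.2 ± 2.66 CPM in Recql KO, against 16.7 ± 8.37 in WT (0.0486). Cldn5, Sox17 and Gpihbp1 had 0 counts in all 12 libraries. Of arterial and venous genes 1 of 8 rose (Notch4, 4.74 ± 0.793 CPM in Recql KO, 0.499 ± 0.181 in WT) and 1 fell (Gja5, 0.0454 ± 0.0331 in Recql KO, 1.94 ± 0.879 in WT). Of 4 tested lymphatic genes Pdpn rose and Reln fell. Across the 11 lists beside the members, edgeR called 0 of 100 tested genes in Blm KO against WT (23 at an unadjusted p under 0.05, 8 by DESeq2) and 0 in double KO against WT (22 and 6). Over all genes the same shares were 0.753%, 18.9% and 6.65% in Blm KO against WT. In double KO against WT they were 0.121%, 10.8% and 2.28%.

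Markers of other cells moved beside Erg with the Recql KO label, where 15.6% of all genes were called lower and 14.2% higher. Of 12 tested cartilage genes 7 fell and 0 rose, with a median of -2.45, and the 13 genes of the list summed to 267 to 367 CPM in Recql KO libraries, against 1167 to 2595 CPM in WT. Col2a1, the main cartilage collagen gene, fell to 40.1 ± 17.3 CPM in Recql KO, against 757 ± 449 in WT (SD, n = 3, edgeR adjusted p = 0.000937). Of 8 mural cell genes 4 fell, among them Abcc9 and Kcnj8, subunits of a potassium channel of pericytes (19.5- and 11.8-fold, edgeR adjusted p = 0.000481 and 0.00239), and the list summed to 744 to 803 CPM in Recql KO, against 680 to 879 CPM in WT. Of 10 fibroblast genes 4 fell and 1 rose, and they summed to 12791 to 16275 CPM in Recql KO, against 24519 to 26380 CPM in WT. Most of that sum is collagen: Col1a1 had 5541 ± 960 CPM in Recql KO and 10006 ± 358 in WT. Col1a2 had 3481 ± 490 and 6474 ± 728 CPM, and Col3a1 625 ± 222 and 2743 ± 54.9 CPM. The gene that rose was Dpt (32.3 ± 7.34 CPM in Recql KO, 3.82 ± 3.43 in WT, edgeR adjusted p = 0.00538). Blood, platelet and macrophage genes summed to 6.91 to 13.1 CPM in Recql KO and 8.76 to 12.7 CPM in WT, with 1 of 9 lower (Cd68) and Hbb-bs at 0 in all libraries. The part of these cell types in the levels of Erg, Tek, Kdr and Emcn was not tested.

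The profile of Erg over the 12 libraries was closest to those of Rab39b, Slc1a3, Chrdl1, Fndc4 and Zcchc5 among 12024 genes averaging 1 CPM or more (Pearson r of 0.984 to 0.99 on log2 CPM, 12 libraries). No other member was among them. Emcn and Kdr shared Wnt2 and Ddc among their 5 closest genes (r of 0.893 and 0.897 for Emcn, 0.903 and 0.87 for Kdr), and Kdr itself was the third closest gene to Cdh5 (r = 0.893). Flt1 was closest to Etv6, a gene of the ETS family (r = 0.951), and Tek to Impa2 (r = 0.938). The 12 libraries share genotypes and the Recql KO libraries stand apart, so these values are a description with no test.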

How the data were processed

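The deposited table holds expected counts of genes, made by the authors with RSEM 1.2.15 with Bowtie2 2.1.0 on mm10, per the submitters' processing notes. Strand setting, annotation and read filters are not given in the sources used here. Per the labels' protocols, the library kit was a stranded one from KAPA. Per library, 17.4% to 20.2% of values departed from a whole number by over 0.005, and expected counts were rounded for testing in R 4.3.3. All 12 libraries were used, and every pair within a group differed beyond counting noise (chi-square per degree of freedom of at least 25.5).

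The edgeR 4.0.16 filterByExpr filter left 14876 genes. A model with 1 mean per genotype (8 residual degrees of freedom) was fitted to all 12 libraries with TMM scaling and the robust quasi-likelihood F test, with Benjamini-Hochberg adjustment over all genes and a threshold of 0.05. There were 7 comparisons. Levels are TMM-scaled CPM with SD, intervals are 95% of the log2 fold change from the model, and floors of 3 counts cover counting error only. Exon lengths and gene positions came from GENCODE M21 (mm10). Alternatives were RLE scaling, 2 other filters, DESeq2 1.42.0, 2-group fits, a replicate block, the Y-linked level as a covariate (Ddx3y, Eif2s3y, Kdm5d and Uty), subsets by Y-linked level and leaving out each library.

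Members and lists were chosen with earlier results of these data known. The text names all 10 members, up to 4 called genes per other list with the lowest adjusted p, and for each member the 5 genes most alike over 12 libraries, of which some are printed.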

Additional observations from a re-analysis of the deposited data

Results flagged for a closer look

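The change with the Recql KO label differed between Blm KO and WT cells by an interaction test for 5 members, given as the log2 change of double KO over Blm KO minus that of Recql KO over WT. The difference was 4.17 for Erg, 3.48 for Emcn, 2.85 for Flt1, 3.3 for Kdr and 3.99 for Cdh5, all past an edgeR adjusted p of 0.05, beside 10.4% of all genes, and 5.86% as positive. Flt1, Kdr and Cdh5 lost the call in 7, 7 and 8 of the 12 fits that left out a library, and also with the Y-linked covariate. Erg and Emcn kept it in those fits. For Emcn, every double KO library was above every Blm KO library, and every Recql KO library was below every WT library.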

How the results depend on the processing

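The number of members called was recomputed under each alternative, and no log2 fold change that was followed changed sign. Against 0 called in Blm KO vs WT, DESeq2 gave 5 and the replicate block 1. Against 4 in Recql KO vs WT, Y-high libraries gave 2, and the Y-linked covariate and the replicate block 3 each. Against 3 in double KO vs Blm KO, no filter on low counts gave 1, a fit on the compared groups 0, the Y-linked covariate 2, DESeq2 4, Y-high libraries 0 and Y-low libraries 1. Against 3 in double KO vs Recql KO, DESeq2 gave 5, no filter, the compared groups alone and the replicate block 2 each, Y-high libraries 1 and Y-low libraries 0. Against 2 in Recql KO vs Blm KO (Erg and Tek), Y-low libraries gave 1, which was Flt1, with Erg and Tek lost, and DESeq2 and the compared groups gave 3, with Flt1 added. Against 5 for the difference between changes, the Y-linked covariate gave 3, Y-high libraries 0, DESeq2 6, no filter 4 (without Flt1, edgeR adjusted p = 0.0556) and a filter of 1 CPM in 3 libraries 4, with Cdh5 not tested. Subsets leave fewer libraries, and a lone library is assumed to vary like the groups with more than 1 library. Among Y-high libraries that group is WT alone. Counts given for Y-high libraries, here and below, thus hold no spread within a KO genotype. The cause of the other shifts was not tested.

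Leaving out 1 library at a time gave 0 to 1 for Blm KO vs WT, 1 to 4 for Recql KO vs WT, 0 to 3 for double KO vs Blm KO, 2 to 4 for double KO vs Recql KO, 1 to 3 for Recql KO vs Blm KO, 2 to 5 for the difference between changes and 0 throughout for double KO vs WT. Numbers over all genes moved by more than 1.5 times too: with DESeq2 they were 968 against 112 in Blm KO vs WT, 338 against 18 in double KO vs WT, 1415 against 291 in double KO vs Blm KO and 2625 against 1554 for the difference between changes. With Y-high libraries they were 1128 against 4444 in Recql KO vs WT, 373 against 3681 in double KO vs Recql KO and 1405 against 5985 in Recql KO vs Blm KO. Among Y-high libraries they were also 2 in Blm KO vs WT, 3 in double KO vs WT, 0 in double KO vs Blm KO and 5 for the difference between changes, and among Y-low libraries 3 in double KO vs Blm KO, 200 in double KO vs Recql KO and 590 in Recql KO vs Blm KO. With the Y-linked covariate they were 45 in Blm KO vs WT, 43 in double KO vs WT and 810 for the difference between changes. A fit on the compared groups gave 0 in double KO vs WT and 8 in double KO vs Blm KO, and the replicate block 50 and 762. Leaving out 1 library gave 31 to 572 in Blm KO vs WT, 8 to 28 in double KO vs WT, 9 to 585 in double KO vs Blm KO, 2692 to 4964 in Recql KO vs WT, 2157 to 3875 in double KO vs Recql KO and 549 to 1836 for the difference between changes.

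Replicate numbers did not pair the libraries: the deviations of same-numbered libraries from their group means correlated at -0.206 to 0.204 over 18 pairs, with 4 over 0.1. With that block Kdr in Recql KO vs WT was at -1.86 (edgeR adjusted p = 0.0518), Tek in double KO vs Recql KO at 2.99 (0.055) and Emcn in Blm KO vs WT at -1.88 (0.034). Under RLE scaling the median of all genes stayed within 0.1 of that with TMM scaling, and the same members were called. At the depth of these libraries Tie1 was not detectable above 3 counts in any group, and Pecam1, Vwf and Cdh5 had too few counts to show a small change.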

Other observations

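A few values belong to no comparison. The second Blm KO library held the highest Tek (7.94 CPM) and the highest Eng (66.7 CPM) of all 12 libraries, and the second double KO library the highest Flt1 (104 CPM) and Emcn (1.86 CPM) with the lowest Eng (30.9 CPM). The third WT library held the highest Kdr (13.5 CPM) and Cdh5 (1.36 CPM) and the lowest Pecam1 (0.152 CPM). Within the WT libraries the highest level over the lowest was 3.68 for Kdr, 3.89 for Cdh5, 3.23 for Flt1 and 3.76 for Pecam1, against 1.62 for Erg and 1.47 for Emcn. The lowest level of Pecam1 was 8 counts, beside 10 counts in double KO replicate 2, so its rank lies within counting error.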
